A study of Saccharomyces cerevisiae with 17 samples.

Results

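Budding yeast cells lacking RRP6 were compared with their parent strain BY4741 while both had ample phosphate. The comparison rests on 3 of the 17 libraries of the series, which were made together in a separate experiment: libraries C and D from independent cultures of the rrp6 deletion in the BY4741 background, and library B from 1 culture of BY4741. All 3 cultures were grown with 7.2 mM potassium phosphate, collected, washed in the same medium and incubated for a further 60 min before freezing. BY4741 is a haploid laboratory strain. LEU2, URA3 and MET17 had 0 reads in C, D and B, so both strains share these deletions. HIS3, also checked as a deleted gene of BY4741, had 2957 reads in C, 2757 in D and 5624 in B. Which part of HIS3 these reads cover was not examined. In C and D, STE2, the alpha-factor receptor of mating type a cells, stood at 523 and 500.0 RPM (reads of a feature per 1000000 reads of its library), and STE3, the receptor of mating type alpha cells, at 11.9 and 9.45 RPM. In B the levels were 568 RPM for STE2 and 8.22 RPM for STE3. Whether the deletion strain was 1 clone or several is not given in the sources used here. The features described are the 6039 of 7125 listed that reached 1 RPM in at least 2 of these 3 libraries, and a difference was counted only where both deletion libraries lay on the same side of B. Among features close to the minimum, YER084W was just inside at 1.01 and 1.15 RPM in C and D and 0.969 RPM in B, and ENA2 just outside at 1.01 and 0.974 RPM in C and D and 0.301 RPM in B.

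Rrp6 is a 3'-to-5' exoribonuclease of the nucleus that works with the RNA exosome. The nuclear exosome trims the 3' ends of small nucleolar RNAs (snoRNAs) and of ribosomal RNA precursors, and it degrades unstable noncoding transcripts, failed precursors and RNAs released by early transcription termination. The TRAMP complex, a poly(A) polymerase with a helicase and an RNA-binding subunit, tags many of these RNAs, and the Nrd1-Nab3-Sen1 complex terminates their transcription. PHO84, the high-affinity phosphate transporter gene, is known from earlier yeast work to carry antisense transcripts that are stabilised without Rrp6.

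RRP6 had 0 reads in C and 0 reads in D, against 1731 reads (57.8 RPM) in B. Set against a floor of 3 reads per library, RRP6 was at least 337-fold lower in the deletion, as the labels state. The libraries held 18774496 reads in C, 17456347 in D and 29930079 in B. C and D agreed closely: the median absolute difference between them was 0.09 on the log2(RPM + 1) scale and 0.28 at the 95th percentile. They were nonetheless separate libraries, with a mean chi-square of 7.75 per feature over 6039 features, where counting noise alone gives about 1.

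B is a single BY4741 culture, and it differed from the 3 BY4741 cultures of another experiment (libraries 10, 11 and 13) at 3820 of 6039 features, 63.3%, of which 1093 (18.1%) were higher and 2727 (45.2%) lower in B. A range check is therefore used: a change is outside the range where C and D both lie above, or both below, all 5 BY4741 libraries at 7.2 mM phosphate (B, 10, 11, 13 and A-1). A-1 comes from the third experiment, in which most snoRNAs have reads, unlike the other 2 experiments. Strain and culture cannot be told apart beyond what this range shows.

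A feature is called changed where limma's adjusted p was under 0.05 and C and D lay on one side of B. By this rule 2449 of 6039 features (40.6%) differed, 963 (15.9%) higher and 1486 (24.6%) lower in the deletion. Counting changes of at least 2-fold on the log2(RPM + 1) scale, 262 features (4.34%) were higher and 42 (0.695%) lower. Folds given for single genes are ratios of RPM, the mean of C and D over B, and for low features they exceed the log2(RPM + 1) change. Of the called features, 678 (11.2% of all tested) lay above and 1179 (19.5%) below all 5 BY4741 libraries; without A-1 in the range these were 727 (12.0%) and 1288 (21.3%). Of the features at least 2-fold changed, 248 (4.11%) were higher and 36 (0.596%) lower outside the range. The median change over all tested features was -0.08 on the log2 scale. All 45 features that were at least 8-fold higher lay above all 5 BY4741 libraries, and 2 features, PHO84 and the unnamed reading frame YNL040W, were at least 4-fold lower.

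**Figure D1:**
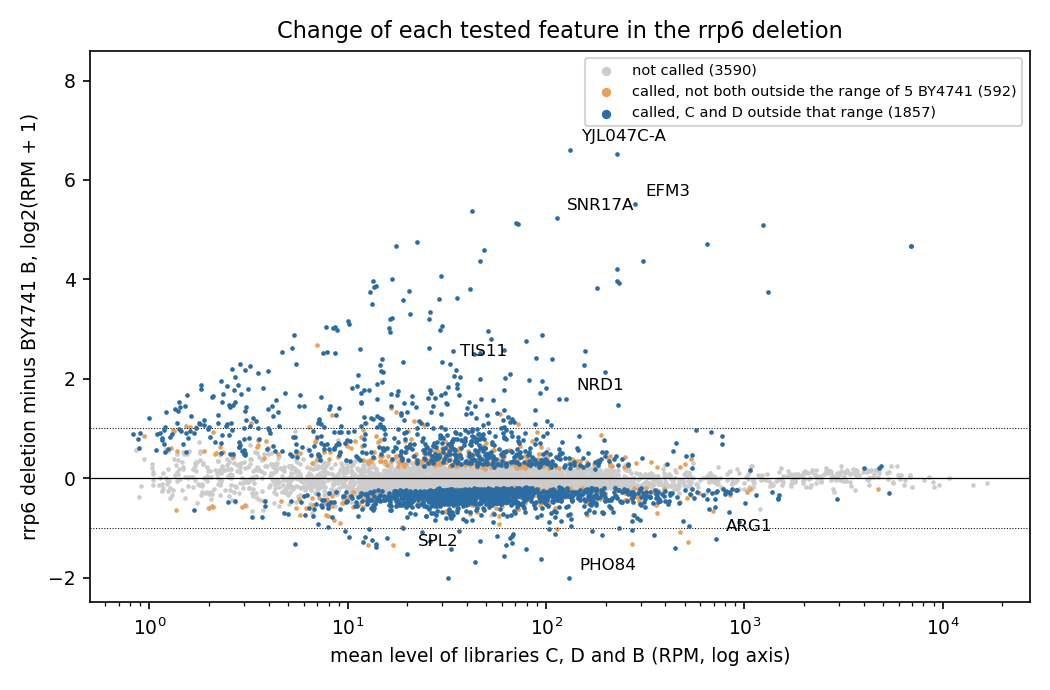
Change of each of the 6039 tested features (rrp6 deletion minus BY4741 B, log2(RPM + 1), vertical axis) against its mean level in RPM over C, D and B (log axis); dotted lines mark 2-fold. The 1857 features in blue were called and lie outside the range of 5 BY4741 libraries, the rises reach 6.61 at YJL047C-A, and the falls end at -2.01 at PHO84.

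The most strongly raised features included the ribosomal RNA transcription units and both copies of the U3 snoRNA gene. Summed over the 2 listed copies of RDN37, the unit that is transcribed into the ribosomal RNA precursor and holds the mature ribosomal RNA sequences, the level was 19298 RPM in C and 21604 RPM in D, against 801 RPM in B and 331 to 781 RPM in the other 4 BY4741 libraries. The 37 listed features of the ribosomal DNA and its flanks took 2.65% of reads in C and 2.94% in D, against 0.251% in B and 0.161% to 0.267% in the other 4 BY4741 libraries. Of these features 18 were tested; 14 were called higher, 0 lower, and their median change was 4.09. These copies and the small frames within them are repeats whose reads the counting may have split, and the grouping was made after their values had been seen. Because the library kit works on purified mRNA, the RPM of a ribosomal RNA is the part that passed that step, and precursor and mature RNA were not separated.

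SNR17A, one of the copies of the gene for U3, a snoRNA needed to process ribosomal RNA, had 166 RPM in C and 170 RPM in D, against 3.51 RPM in B. This is a 47.9-fold rise (log2 change 5.23 ± 0.22, SE; adjusted p = 9.51e-12). SNR17B, the other copy, had 106 and 109 RPM in C and D, against 2.14 RPM in B, a 50.1-fold rise. In the other 4 BY4741 libraries the copies stayed between 1.94 and 3.27 RPM. As with ribosomal RNA, these levels are the part of U3 that passed the mRNA step. Precursor and mature U3 were not separated, so the folds are not those of total U3. The 2 genes are near-identical, so how reads were divided between them is uncertain. Both moved by a similar factor, but shared reads would also give this, so which copy rose cannot be told. The other snoRNAs could not be read, since 74 of the 76 snoRNA features had 0 reads in all 15 libraries of these 2 experiments, although 64 of these 74 had reads in the third experiment.

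Of the 15 highest features named by rule, 3 (EFM3, CMC4 and LIN1) are genes whose 3' end faces a snoRNA gene. The reference annotation gives 27 tested genes with a snoRNA as the next gene beyond their 3' end on the other strand, so that both are transcribed toward each other. Of these, 16 were called higher (59.3%, against 15.9% of all features) and 1, ADE16, lower; 13 of the 16 lay above all 5 BY4741 libraries and 8 were at least 2-fold higher, with a median of 0.27. EFM3, which methylates translation elongation factor 2 and faces SNR3, had 384 and 446 RPM in C and D, against 8.12 RPM in B and 11.7 to 14.0 RPM in the other 4 BY4741 libraries. This is a 51.1-fold rise (log2 change 5.51 ± 0.10, SE; adjusted p = 3.26e-16). CMC4, a small protein of the mitochondrial intermembrane space that faces SNR11, had 322 and 339 RPM in C and D, against 20.2 RPM in B. LIN1, a component of the U5 splicing particle that faces SNR71, had 341 and 341 RPM in C and D, against 21.3 RPM in B. Both were about 16-fold higher (16.4-fold and 16.0-fold).

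The next genes of this kind rose less. GLO4, a mitochondrial glyoxalase that faces SNR9, had 124 and 144 RPM in C and D, against 17.1 RPM in B (7.81-fold). KTR2, a mannosyltransferase that faces SNR42, had 209 and 227 RPM in C and D, against 35.9 RPM in B (6.07-fold). PMD1, which faces SNR4, was 4.21-fold higher. POP6, a subunit of RNase P and RNase MRP that faces SNR46, had 125 and 128 RPM in C and D, against 31.98 RPM in B (3.96-fold). CUE5, a ubiquitin-binding autophagy receptor that faces SNR62, was 2.79-fold higher. Not every such gene moved: RPL31A, a ribosomal protein gene facing SNR63, had 4382 and 4164 RPM in C and D, against 4251 RPM in B (log2 change 0.01, adjusted p = 0.965).

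The other arrangements had smaller shares. Of 22 tested genes with a snoRNA beyond the 3' end on the same strand, 6 (27.3%) were called higher and 2 lower. Of 26 genes with a snoRNA before the 5' end on the same strand, 5 (19.2%) were higher and 8 lower, and of 24 genes with one before the 5' end on the other strand, 6 (25%) were higher and 7 lower. Their medians were 0.13, -0.04 and -0.07. These classes were drawn up after the values had been seen, overlap in part (PMD1 and CUE5 each stand in 2 of them) and carry no test between them. The kit keeps strand, but whether the counting used it is not given in the sources used here. Without strand, reads that run into a gene from its neighbour cannot be told apart from the gene's own.

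**Figure D2:**
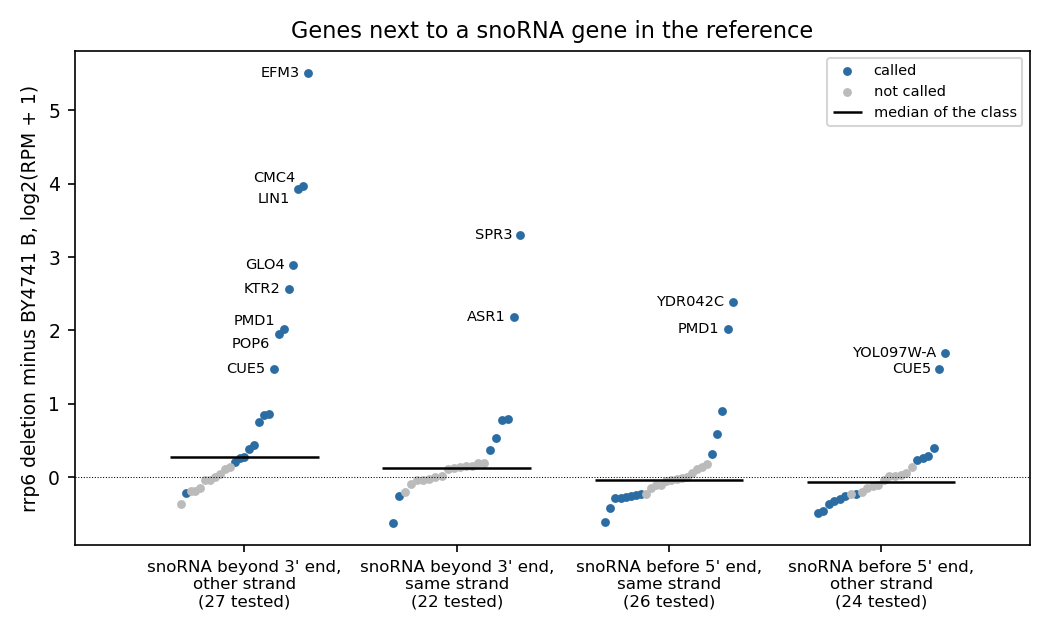
Change of each tested gene next to a snoRNA gene (rrp6 deletion minus BY4741 B, log2(RPM + 1)), by the side and strand of the snoRNA; black bars are class medians and blue points are called. The facing class on the left holds the 8 genes from CUE5 (1.47) to EFM3 (5.51) and has the highest median, 0.27.

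Several of the highest RNAs were reading frames with little or no signal in BY4741. YJL047C-A, a small reading frame between RTT101 and UBX6, overlaps the snoRNA gene SNR60 on the same strand in the reference. Reads of the frame were not separated from those of SNR60. The level of YJL047C-A was 197 and 199 RPM in C and D, against 1.04 RPM in B and 0.897 to 2.39 RPM in the other 4 BY4741 libraries. This was the highest log2(RPM + 1) change by the naming rule (6.61 ± 0.15, SE; adjusted p = 4.90e-15; 191-fold), while by the ratio of RPM YGR273C was higher (394-fold). Outside the ribosomal DNA, 5 features were under 1 RPM in all 5 BY4741 libraries and at least 10 RPM in both C and D, a group drawn up after the values had been seen. They were YPR092W at 60.3 and 65.9 RPM in C and D against 0.535 RPM in B, YLR365W at 32.97 and 33.5 RPM against 0.267 RPM, YGR273C at 25.4 and 27.2 RPM against 0.0668 RPM, YER135C at 15.2 and 14.0 RPM against 0.735 RPM, and VPS61 at 11.3 and 11.4 RPM against 0.501 RPM. The reverse pattern was shown by RRP6 alone among the listed features. Of 305 tested features that the reference does not name, ribosomal DNA left out, 85 (27.9%) were called higher and 43 (14.1%) at least 2-fold higher. Among its 5710 tested protein-coding genes these were 862 (15.1%) and 203 (3.56%). The difference in shares was not tested. A feature under 1 RPM in B was tested only where both C and D reached 1 RPM. This minimum favours rises among low features, so no conclusion is drawn from the difference.

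Further genes among the 15 highest carry known functions. OAR1, a reductase of mitochondrial fatty acid synthesis, had 71.2 and 72.1 RPM in C and D, against 2.00 RPM in B and 3.60 to 4.19 RPM in the other BY4741 libraries (35.7-fold). FMP40, a mitochondrial protein that attaches AMP to other proteins, had 267 and 254 RPM in C and D, against 17.4 RPM in B (14.95-fold). The unnamed frames YCR064C, YLR334C and YLR349W were 26.6-fold, 41.4-fold and 23.5-fold higher. YGR109W-B, a reading frame of the Ty3 retrotransposon, had 58.5 and 62.6 RPM in C and D, against 3.41 RPM in B (17.8-fold). Its BY4741 level varied from 1.01 to 19.4 RPM between experiments and its reads may be split between copies. The other 3 Ty features tested were not called.

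Among the genes of the decay machinery itself, TRF5 and NRD1 rose most. TRF5, a poly(A) polymerase of TRAMP, had 77.5 and 78.0 RPM in C and D, against 29.5 RPM in B and 32.2 to 47.9 RPM in the other 4 BY4741 libraries. It was 2.64-fold higher (log2 change 1.37 ± 0.11, SE; adjusted p = 3.08e-08) and above the range. Of the 7 cofactor genes, 3 were called higher (42.9%, against 15.9% of all features) and 0 lower; their median was 0.22 against B and -0.10 against libraries 10, 11 and 13. AIR2 and AIR1, which encode the RNA-binding subunits of TRAMP, were 1.72-fold and 1.22-fold higher than B and not outside the BY4741 range; for AIR2, D (36.7 RPM) but not C (35.3 RPM) was above the highest BY4741 library (35.6 RPM). PAP2, the other TRAMP polymerase, had 37.7 and 38.04 RPM in C and D, against 38.5 RPM in B. MTR4, the TRAMP helicase (adjusted p = 0.158), LRP1 (adjusted p = 0.0939) and MPP6 (adjusted p = 0.753), which bind Rrp6 or the exosome, were not called.

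Of the 10 other exosome subunit genes, 5 were called higher (50.0%, against 15.9% of all features) and 0 lower; their median was 0.18 against B and 0.04 against libraries 10, 11 and 13. RRP40, which encodes a cap subunit, had 83.1 and 82.8 RPM in C and D, against 65.7 RPM in B (1.26-fold), and RRP42, which encodes a ring subunit, was 1.18-fold higher; these 2 lay above all 5 BY4741 libraries. RRP45, RRP4 and CSL4 were called but were not outside the range (for CSL4, D alone was above it), and without library D only 3 of the 10 were called. DIS3, the other exosome nuclease, had 59.4 and 64.4 RPM in C and D, against 60.0 RPM in B (adjusted p = 0.682).

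NRD1, whose own early termination limits its level, had 150 and 174 RPM in C and D, against 52.7 RPM in B and 69.7 to 101 RPM in the other BY4741 libraries. It was 3.08-fold higher (log2 change 1.60 ± 0.11, SE; adjusted p = 7.30e-09). Its partners NAB3, at 48.9 and 55.2 RPM in C and D against 51.8 RPM in B, and SEN1, at 44.5 and 50.4 RPM against 49.5 RPM, were not called. Of 10 genes listed here as held down by early termination, 4 (40.0%) rose and 1 (10.0%) fell, against 15.9% and 24.6% of all features. Control by early termination was not checked gene by gene for these 10. Their median was 0.12 against B and -0.31 against libraries 10, 11 and 13. Outside the BY4741 range these were NRD1 and URA8, a CTP synthase (79.2 and 88.1 RPM in C and D, against 50.9 RPM in B), which were higher, and LEU4, of leucine synthesis (261 and 281 RPM, against 405 RPM), which was lower. IMD2, of GTP synthesis, had 84.9 and 90.3 RPM in C and D, against 40.5 RPM in B, but A-1 had 85.8 RPM. HRP1, a 3'-end processing factor, was 1.35-fold higher than B and inside the range.

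Genes known to limit their own RNA through nuclear decay went in both directions. TIS11, which promotes decay of mRNAs of iron-using proteins, had 45.1 and 44.6 RPM in C and D, against 8.35 RPM in B and 5.42 to 10.0 RPM in the other BY4741 libraries (5.37-fold; adjusted p = 3.43e-07). NAB2, a poly(A)-binding protein of the nucleus, had 119 and 130 RPM in C and D, against 55.1 RPM in B (2.26-fold; adjusted p = 4.39e-09). RPS22B and RPL22B, which encode ribosomal proteins, were 1.60-fold and 1.38-fold lower, with C and D below all 5 BY4741 libraries. BDF2, a bromodomain protein, was not called (adjusted p = 0.61). RPS22B also hosts an intronic snoRNA, and YLR365W, described above, is the next gene before its 5' end. Of 8 snoRNA host genes 3 (37.5%) were called higher and 1 (12.5%) lower, against 15.9% and 24.6% of all features. RPL7B stood above the range at 676 and 681 RPM in C and D, against 347 RPM in B. Among 21 polyadenylation and export genes, NAB2, PTA1 (2.14-fold), YRA1 (1.37-fold) and MTR2 (1.23-fold) rose, all outside the range, and CFT2 and PAB1 fell. These rises and falls were 19.0% and 9.52% of the list, against 15.9% and 24.6% of all features.

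**Figure D3:**
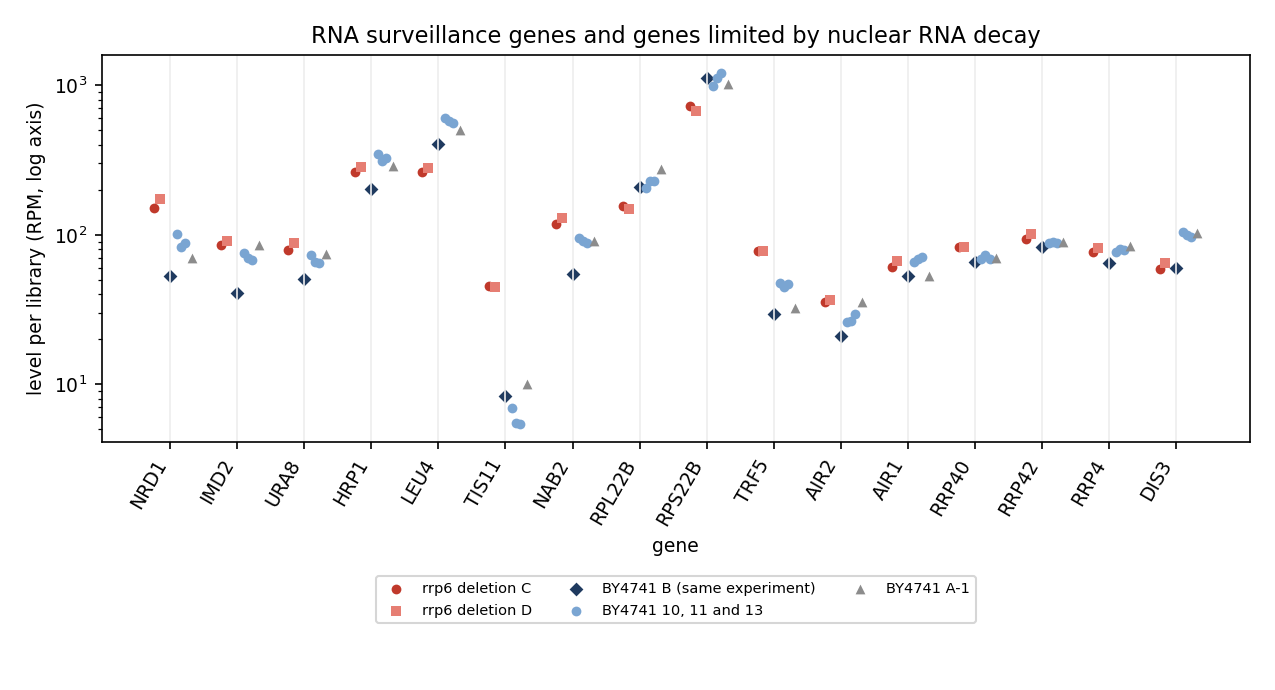
Level in RPM (log axis) of 16 genes of RNA surveillance or limited by nuclear RNA decay, in each rrp6 deletion library (red) and each of 5 BY4741 libraries. TIS11, NRD1, TRF5 and NAB2 lie above every BY4741 library in both C and D, while DIS3 in B (60.0 RPM) already lies below the other BY4741 libraries and close to C and D.

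Phosphate genes were mostly lower in the deletion, in medium that held ample phosphate. Of 21 transport and scavenging genes, all tested, 13 were called lower (61.9%, against 24.6% of all features) and 3 higher (14.3%, against 15.9%). Their median was -0.54, against -0.08 over all features. Of the 13, 11 lay below all 5 BY4741 libraries (19.5% of all features were called lower and lay there). PHO84 had 64.5 and 64.9 RPM in C and D, against 263 RPM in B and 189 to 249 RPM in the other BY4741 libraries. It was 4.07-fold lower (log2 change -2.01 ± 0.08, SE; adjusted p = 2.34e-12). Antisense RNA at PHO84 was not analysed here. SPL2, a small protein that represses low-affinity phosphate uptake, had 11.7 and 12.1 RPM in C and D, against 36.1 RPM in B and 20.2 to 23.5 RPM in the other BY4741 libraries (log2 change -1.52 ± 0.12, SE; adjusted p = 1.78e-08). B was the highest BY4741 library for SPL2, so its 3.03-fold difference is the largest that any of these libraries would give.

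The polyphosphate synthase genes fell with them. VTC3 had 50.1 and 50.3 RPM in C and D, against 136 RPM in B (2.71-fold lower), and VTC4, the catalytic subunit, had 75.6 and 82.9 RPM in C and D, against 174 RPM in B (2.20-fold lower). VTC2 was 1.47-fold lower, and all 3 lay below the BY4741 range. VTC1 was 1.62-fold lower than B, but its 309 and 293 RPM lay above the 213 to 286 RPM of the other 4 BY4741 libraries, so the direction depends on B. PHO8, the vacuolar alkaline phosphatase, had 86.7 and 88.0 RPM in C and D, against 142 RPM in B and 125 to 130 RPM elsewhere.

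The secreted acid phosphatases did not move together. PHO12 had 38.2 and 35.3 RPM in C and D, against 111 RPM in B (3.03-fold lower), and PHO11 had 24.02 and 25.7 RPM, against 44.2 RPM (1.78-fold lower); these 2 genes are near-identical and their split is uncertain. PHO5, the main repressible acid phosphatase, rose instead, with 53.4 and 54.5 RPM in C and D, against 31.0 RPM in B and 17.1 to 35.2 RPM in the other BY4741 libraries (1.74-fold; log2 change 0.78 ± 0.15, SE; adjusted p = 0.000518). PHM7 also rose (11.5 and 10.8 RPM in C and D, against 5.38 RPM in B). The transporter PHO89 was 1.96-fold lower, at 2.66 and 2.92 RPM in C and D against 5.48 RPM in B.

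The low-affinity transporters differed little from B. PHO87 had 39.6 and 44.0 RPM in C and D, against 45.3 RPM in B (log2 change -0.12 ± 0.10, SE; adjusted p = 0.372). PHO90 had 66.5 and 73.1 RPM in C and D, against 55.8 RPM in B, a called rise of 1.25-fold that lay below the 82.0 to 86.2 RPM of the other BY4741 libraries. PHO91, of the vacuole, had 67.6 and 74.8 RPM in C and D, against 71.4 RPM in B (adjusted p = 0.972).

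Among 10 phosphate signalling genes 5 (50.0%) were called lower and 1 (10.0%) higher, against 24.6% and 15.9% of all features. Of the 5 lower genes 3 were outside the range, and the median of the list was -0.24. PHO81, the cyclin-dependent kinase inhibitor of the pathway, had 27.0 and 31.7 RPM in C and D, against 43.1 RPM in B and 44.4 to 47.0 RPM elsewhere. VIP1, an inositol pyrophosphate synthase, had 47.6 and 56.5 RPM in C and D, against 74.6 RPM in B. PHO85, the kinase that keeps the pathway off in phosphate, rose 1.42-fold, with 129 and 130 RPM in C and D, against 91.5 RPM in B. The transcription factors PHO4 (adjusted p = 0.0707) and PHO2 (adjusted p = 0.0686) were not called. BMH1, a 14-3-3 protein, had 975 and 945 RPM in C and D, against 1157 RPM in B (log2 change -0.27, adjusted p = 0.0266); D but not C lay below the lowest BY4741 library (957 RPM), and the call was lost without C or without D. ARO9, the neighbour of SPL2 on the other strand and a gene of aromatic amino acid breakdown, had 5.11 and 5.38 RPM in C and D, against 9.62 RPM in B (1.83-fold lower).

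**Figure D4:**
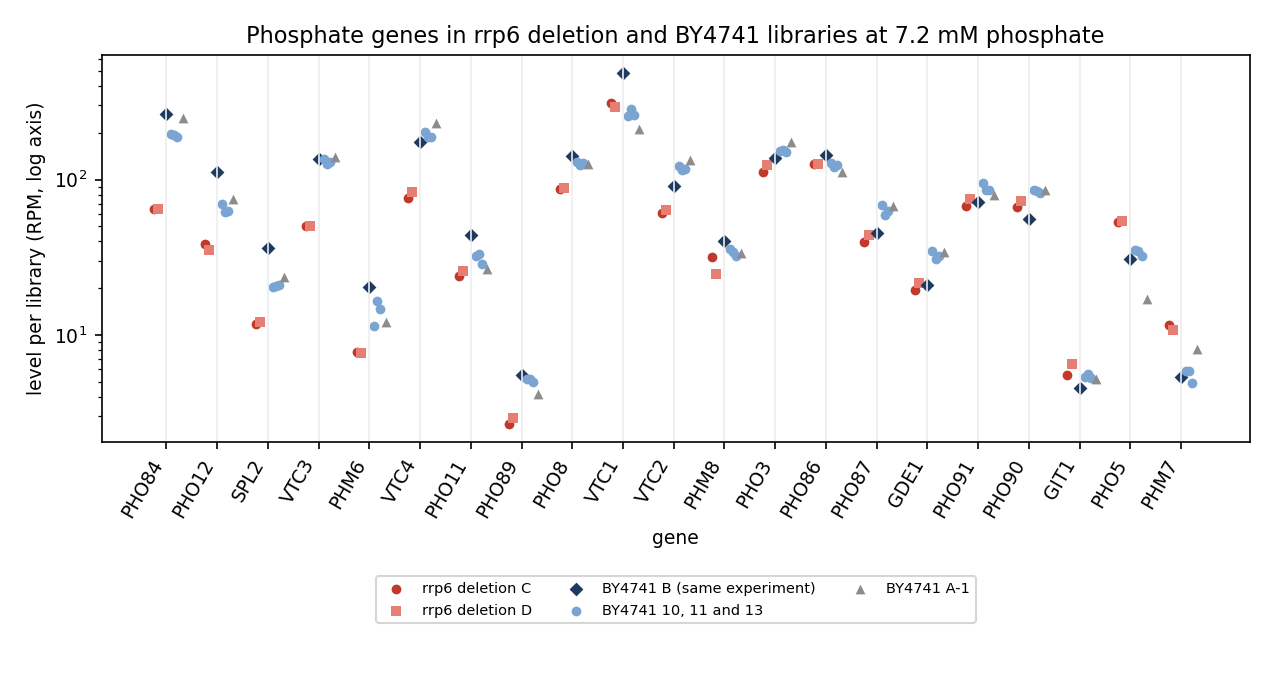
Level in RPM (log axis) of the 21 phosphate transport and scavenging genes in each rrp6 deletion library (red) and each of 5 BY4741 libraries, ordered from the largest fall against B to the largest rise. PHO84, PHO12, SPL2 and VTC3 lie below every BY4741 library, PHO5 and PHM7 lie above every one, and VTC1 lies below B alone.

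Many meiosis and sporulation genes, which are largely silent in growing haploid cells, were higher in the deletion. Of 42 such genes 40 were tested. Of these, 23 (57.5%, against 15.9% of all features) were called higher and 3 (7.5%, against 24.6%) lower, with a median of 0.48. All 23 lay above the 5 BY4741 libraries (11.2% of all features were called higher and lay there). A filter of 10 RPM left 9 of these genes called higher, since most are low. Whether the counting used strand is not given, so RNA of the other strand was not separated from the genes' own. MEI4, needed for meiotic recombination breaks, had 38.8 and 36.3 RPM in C and D, against 2.81 RPM in B (13.4-fold; adjusted p = 7.27e-10). SPR3, a septin of sporulation that has SNR48 beyond its 3' end, had 28.3 and 31.3 RPM in C and D, against 2.14 RPM in B (14.0-fold). RED1, of the meiotic chromosome axis, was 4.36-fold higher. IME1, the master activator of meiosis, had 12.5 and 10.8 RPM in C and D, against 3.71 RPM in B and 5.37 to 7.41 RPM in the other BY4741 libraries. IME2, the kinase that acts after Ime1, was not called (5.49 and 6.19 RPM in C and D, against 5.48 RPM in B). SPO1 and ZIP1 went the other way, with 3.57 and 2.98 RPM for SPO1 in C and D against 9.72 RPM in B, and 6.87 and 6.76 RPM for ZIP1 against 16.8 RPM.

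Glucose-repressed genes were also mostly higher. Of 23 genes 13 were called higher (56.5%, against 15.9% of all features) and 4 lower (17.4%, against 24.6%). Their median was 0.39. Outside the range were 11 of the higher and 3 of the lower genes (of all features, 11.2% and 19.5% were called and lay there). MLS1, the malate synthase of the glyoxylate cycle, had 46.2 and 39.1 RPM in C and D, against 4.18 RPM in B and 1.75 to 5.92 RPM in the other BY4741 libraries (10.2-fold). ICL1, its partner enzyme, had 86.6 and 98.4 RPM in C and D, against 48.9 RPM in B. MAL32, a maltase with a near-identical copy, had 25.2 and 27.2 RPM in C and D, against 4.34 RPM in B. The hexose transporter gene HXT7 (81.4 and 71.4 RPM in C and D, against 156 RPM in B; near-identical to HXT6) and the hexokinase gene HXK1 (61.9 and 48.7 RPM, against 173 RPM) fell.

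General stress genes were lower as a group, with 27 of 39 called lower (69.2%, against 24.6% of all features), 1 higher and a median of -0.60. Of the 27, 20 lay below the BY4741 range (19.5% of all features were called lower and lay there). Trehalose genes were among them: TSL1, a subunit of trehalose synthase, had 47.3 and 41.8 RPM in C and D, against 112 RPM in B and 96.4 to 176 RPM elsewhere. HOR7 had 311 and 263 RPM in C and D, against 762 RPM in B, and DDR48, which DNA damage induces, had 44.4 and 38.1 RPM, against 106 RPM. SOL4, a phosphogluconolactonase, was 2.78-fold lower, and GAD1, the glutamate decarboxylase, 2.75-fold lower. ALD3, an aldehyde dehydrogenase, was the single called rise. For HSP12 the range matters: 219 and 144 RPM in C and D stood against 447 RPM in B, but the 3 BY4741 cultures of the other experiment had 179 to 229 RPM. Of 20 heat shock chaperone genes, 5 were called higher and 2 lower. These shares, 25% and 10.0%, stand against 15.9% and 24.6% of all features. The median of this list was 0.23 against B and -0.27 against libraries 10, 11 and 13. CUR1 (1.63-fold) and FES1 (1.40-fold) were the rises outside the range. Without D the 5 higher genes became 2.

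Amino acid synthesis genes were lower with no called rise. Of 48 genes 36 were called lower (75.0%, against 24.6% of all features) and 0 higher, all 36 below the 5 BY4741 libraries (19.5% of all features were), with a median of -0.42. The arginine genes had the largest falls: ARG1 had 488 and 506 RPM in C and D, against 1160 RPM in B and 1835 to 2014 RPM in the other BY4741 libraries (2.33-fold lower; adjusted p = 2.44e-08). ARG4 was 2.21-fold lower and ARG5,6 2.00-fold lower. B itself was lower than libraries 10, 11 and 13 over these genes, by a median of -0.56, so the distance to those cultures is larger than to B. In sulfur metabolism 3 of 21 genes rose (14.3%, against 15.9% of all features) and 7 fell (33.3%, against 24.6%). Of these, 3 and 6 were outside the range. MET3, the sulfate-activating enzyme, had 82.7 and 75.4 RPM in C and D, against 41.3 RPM in B, while SAM2, of S-adenosylmethionine synthesis, was 1.58-fold lower.

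Changes of carbon and respiratory genes were smaller. The shares called lower and higher were 41.2% and 5.88% for glycolysis. They were 40.6% and 1.45% for mitochondrial ribosomal proteins, against 24.6% and 15.9% of all features. Of 17 glycolysis genes 7 were called lower, all outside the range, and 1 higher, inside it; TDH1 had 49.7 and 45.2 RPM in C and D, against 108 RPM in B, and without C the 7 became 4. Of 31 respiration genes 13 were lower (41.9%, against 24.6% of all features), 10 of them outside the range, and 1 higher; COX5B was 1.59-fold and SDH1 1.55-fold lower. The list's median was -0.18 against B but 0.06 against libraries 10, 11 and 13. Of 69 mitochondrial ribosomal protein genes 28 were lower and 1, RSM25 (111 and 110 RPM in C and D, against 41.9 RPM in B), was higher. The count of 28 fell to 14 without D, 11 of the 28 were outside the range, and the median was -0.19 against B but 0.03 against libraries 10, 11 and 13. Among the 15 lowest features were also YNL040W (15.8 and 15.1 RPM in C and D, against 65.1 RPM in B), TMT1, which methylates trans-aconitate (3.32-fold lower), PYK2, a minor pyruvate kinase (2.65-fold lower), BIO4, of biotin synthesis (2.50-fold lower), and PHM6, a phosphate-regulated gene (2.63-fold lower).

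Ribosome-related genes depended on the BY4741 library used, and 11 of the 30 lists with at least 5 tested members had a median of the opposite sign against libraries 10, 11 and 13. Of 61 ribosome biogenesis genes 17 were called higher and 2 lower, but 3 of the 17 were outside the BY4741 range and without D 9 were called higher. The shares of this list, 27.9% higher and 3.28% lower, stand against 15.9% and 24.6% of all features. B was lower than libraries 10, 11 and 13 over the biogenesis genes by a median of -0.70. Against those 3 cultures the deletion's median was -0.54, against 0.14 relative to B. DBP2, an RNA helicase, shows this: it had 198 and 249 RPM in C and D, against 121 RPM in B and 271 to 291 RPM in the other BY4741 libraries. Of 18 RNA polymerase I and III genes 6 were higher (33.3%, against 15.9% of all features) and 0 lower (against 24.6%). RPA14, RPA12 and RPC25 were outside the range. The call of RPA14 was lost after scaling by the trimmed mean of M-values (TMM, adjusted p = 0.0571). Of 137 cytosolic ribosomal protein genes 8 rose (5.84%, against 15.9% of all features) and 6 fell (4.38%, against 24.6%), 5 and 5 after TMM scaling. RPL7B and RPS14B were about 1.9-fold higher (1.96-fold and 1.90-fold) and RPL8A 1.86-fold lower.

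Among the remaining lists, cell wall and membrane stress genes were mostly lower, and pyrimidine synthesis had called rises only. In the others few genes were called, or genes were called in both directions. Purine synthesis had 5 genes higher and 4 lower of 20, 1 and 4 of them outside the range; these were 2 higher without D and 2 lower without C. Pyrimidine synthesis had 3 higher (37.5%, against 15.9% of all features) and 0 lower of 8, with 2 outside the range. Iron uptake and use had 4 higher (19.0%) and 7 lower (33.3%) of 21, with 2 and 2 outside the range. The proteasome had 2 higher (5.88%) and 1 lower (2.94%) of 34, shares under those of all features, with 1 and 1 outside the range. Of 20 cell wall and membrane stress genes 13 were lower (65.0%, against 24.6% of all features), 12 of them outside the range. YPS3 (2.22-fold) and TIR4 (2.30-fold) were the 2 higher. The median of this list was -0.31, and without C the 13 became 7. Of 8 genes known for regulation by antisense transcription 3 were higher and 3 lower, 2 and 2 outside the range. Among 15 mating type a genes 0 were higher and 4 lower (26.7%, near the 24.6% of all features), AGA1 among them (1.70-fold lower). After TMM scaling 6 were lower. Shares called lower were 22.2% for nonsense-mediated and cytoplasmic decay genes and 10.0% for histone genes, both under the 24.6% of all features. Of 18 nonsense-mediated and cytoplasmic decay genes 0 were higher and 4, among them CCR4, XRN1 and PAT1, lower (8 after TMM scaling, 2 without C), and of 10 histone genes only HHO1, the linker histone, was called (1.52-fold lower; 2 were called after TMM scaling).

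**Figure D5:**
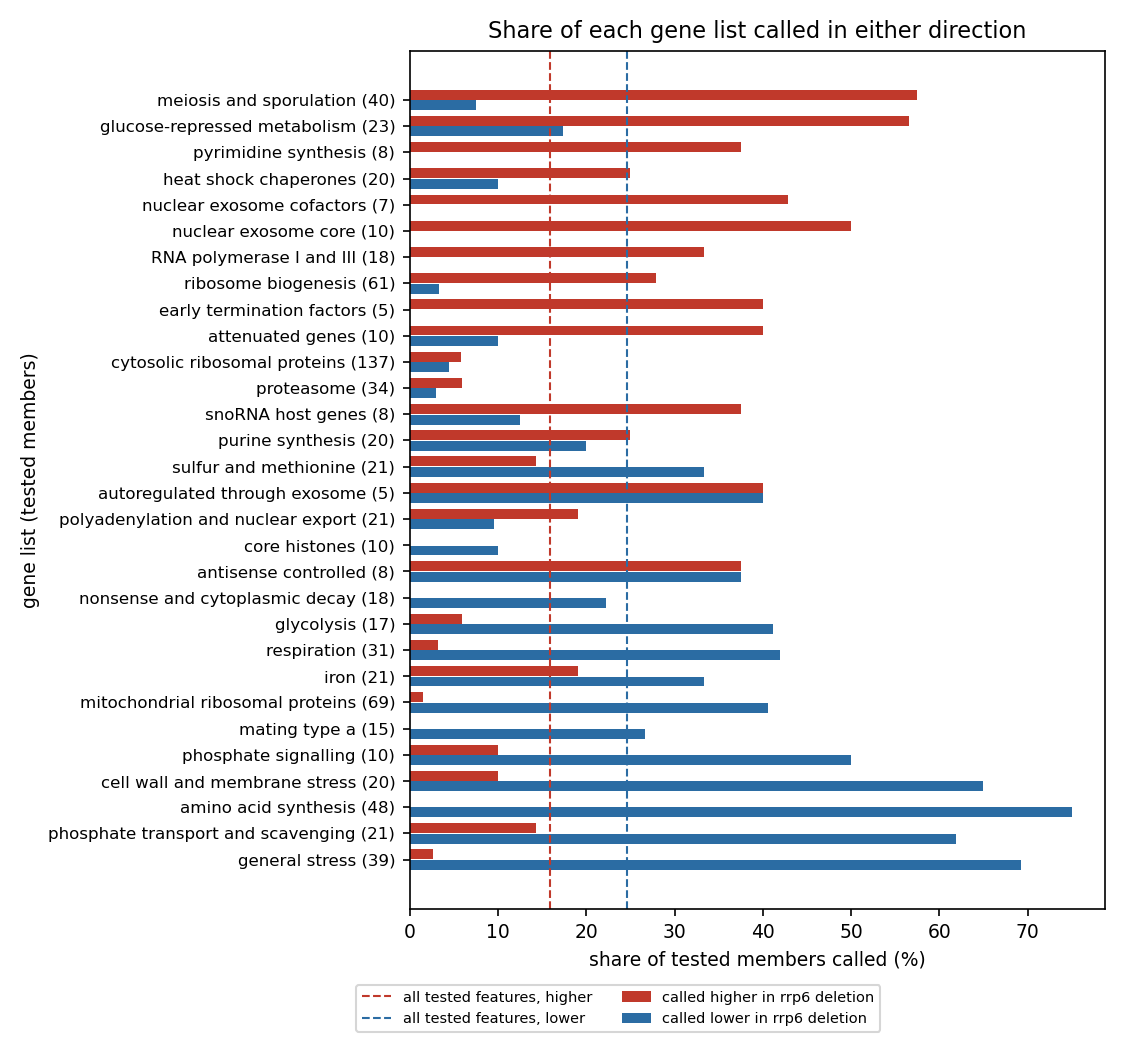
Share of the tested members of each gene list called higher (red) or lower (blue) in the rrp6 deletion, in percent, ordered by median change; dashed lines give the shares among all 6039 tested features, 15.9% higher and 24.6% lower. Meiosis (57.5%) and glucose-repressed genes (56.5%) have the largest shares called higher, and amino acid synthesis (75.0%) the largest called lower.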

How the data were processed

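RNA was extracted from frozen cultures and made into TruSeq stranded mRNA libraries sequenced on a HiSeq 2500, per the labels' protocols. The deposited table gives RPM per feature, that is reads scaled by the authors to 1000000 per library. The sources used here name no aligner, annotation or genome build, nor whether strand was used in counting. Every RPM value was a whole multiple of 1 read (tolerance 0.001), which gave the reads per library, 17456347 to 44667491 over 17 libraries.

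Features with at least 1 RPM in 2 of libraries C, D and B were fitted with limma 3.58.1 on log2(RPM + 1) with an intensity trend and Benjamini-Hochberg adjustment over all 6039, using the 15 libraries of the first 2 experiments. B has no replicate and is assumed to vary like the other groups; log2(RPM + 1) changes understate those of low features, while printed folds are plain ratios of RPM. The spread behind the p-values is that between cultures of the same group within an experiment. It takes nothing from B or from differences between experiments. Alternatives were edgeR 4.0.16 and DESeq2 1.42.0 on the recovered reads, TMM scaling, other filters and pseudocounts, other library sets and leaving out C or D. RefSeq R64 supplied names, biotypes and neighbours for 6211 of 7125 features; no coordinates or sequences from it are printed.

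The features named are RRP6, SPL2, PHO84, PHO5, PHO87, PHO90, BMH1 and ARO9, the 15 highest and 15 lowest called features of at least 10 RPM outside the BY4741 range, and up to 4 called members per list; exosome, cofactor, termination, attenuated and autoregulated genes are given by value, and others named were chosen after their values were seen. The members and lists were chosen with earlier results of these data known. RPP1 was later taken off the ribosomal protein list because it belongs to RNase P. 1 gene that the naming rule picks is not reported here. The procedure was tested on simulated data.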

Additional observations from a re-analysis of the deposited data

How the results depend on the processing

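No paired analysis was possible because the replicate labels are not shared between the groups. No count and no named gene reversed direction under the 12 alternatives; the choice of BY4741 cultures was not among them, and against libraries 10, 11 and 13 the medians of 11 of 30 lists had the opposite sign. The count of features at least 2-fold higher was 262, and 154 with a pseudocount of 5, which shrinks low features by construction. The number of features called was 2449, with 2755 after TMM scaling, 2648 with edgeR and 2467 with DESeq2; leaving out C gave 1849 and leaving out D gave 2201. Without C or D, 857 and 799 features were higher, 992 and 1402 lower, 259 and 252 at least 2-fold higher, and 45 and 41 at least 2-fold lower. Of the calls, 39.3% were higher, and 37.4% after TMM scaling. Genes facing a snoRNA that were called higher numbered 14 to 16 under all 12 alternatives. Over 145 named genes and these alternatives, 1707 of 1735 pairs kept the main call; 27 lost it and 1, MTR4 without C, gained it. The calls lost involved modest changes, among them RRP42, AIR1 and PDC5 without D, and XRN1 and PAT1 without C. The limits are that BY4741 has 1 library in this experiment, that strain and culture cannot be told apart beyond the range check, and that p-values at these depths, 17456347 to 29930079 reads, resolve small changes that other BY4741 cultures also span.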

Other observations

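Other genes outside the lists also stood above all 5 BY4741 libraries; they were picked after their values had been seen. UPC2, an activator of ergosterol synthesis genes, had 112 and 110 RPM in C and D, against 15.6 RPM in B (7.11-fold; adjusted p = 3.76e-13). INO1, which makes the inositol used for phospholipids, had 38.1 and 33.6 RPM in C and D, against 4.98 RPM in B (7.20-fold). OSW2, a protein of the spore wall, had 52.3 and 51.0 RPM in C and D, against 3.24 RPM in B (15.9-fold). PDC6, a minor pyruvate decarboxylase, had 23.3 and 23.2 RPM in C and D, against 2.00 RPM in B (11.6-fold). SPC97, a component of the spindle pole body, had 122 and 122 RPM in C and D, against 21.9 RPM in B (5.57-fold). USA1, of protein degradation at the endoplasmic reticulum, had 215 and 209 RPM in C and D, against 42.7 RPM in B (4.96-fold).

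The third experiment differs from the other 2 at some features in a way that strain labels do not describe. BUD28, a reading frame, had 377 and 329 RPM in C and D, against 860.3 RPM in B and 407 to 471 RPM in libraries 10, 11 and 13, but 0.336 RPM in BY4741 A-1. IME4, a methyltransferase gene with a known antisense transcript, had 19.5 and 24.2 RPM in C and D, against 28.9 RPM in B and 46.1 to 49.2 RPM in libraries 10, 11 and 13, but 0.291 RPM in A-1.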
